A study of Mus musculus with 6 samples.

Results

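Elastic fibre and fibulin genes were followed as a group of 10 named genes, namely elastin (Eln), fibrillins 1 and 2 (Fbn1, Fbn2), the microfibril-associated genes Mfap4 and Mfap5, and the fibulins Fbln1, Fbln2, Fbln5, Efemp1 (fibulin-3) and Efemp2 (fibulin-4). They were chosen by name, with earlier results of these data known, and each matched a single Ensembl identifier among the 55487 genes in the count table. All 10 passed the filter on low counts, as did 19015 genes in total. Bulk polyA RNA sequencing was performed on cultured skin cells of C57BL/6 mice that the labels call endothelial cells. The cells were isolated with anti-CD31 MicroBeads from pools of 4 to 6 mice aged 2 to 3 months. The study asked how a diabetic glucose level changes gene expression in these cells, and compared 3 samples cultured for 48 hours at 5 mmol/L glucose (normal glucose) with 3 at 20 mmol/L (high glucose). The labels give both groups the same genotype, with no transgene or deletion. The study's captions count the 3 samples of a group as mice, while its methods pool 4 to 6 mice for an isolation. Neither says outright whether the 3 samples of a group were separate isolations. P values therefore measure the spread between these samples, which may be technical.

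Elastic fibres give skin and arteries their recoil. Elastin monomers are cross-linked by lysyl oxidases into an amorphous core, which is laid down on a scaffold of fibrillin microfibrils. Fibulins and microfibril-associated proteins bind elastin, fibrillin or both during assembly, and microfibrils also hold latent TGF-β complexes through the latent TGF-β binding proteins. In skin these genes are mainly expressed by dermal fibroblasts.

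The samples held between 120192466 and 146881356 counts, and replicates of a group had a biological coefficient of variation of 8.44%. Levels are given as CPM, the share of a gene in a library's counts expressed per 1e+06 and scaled with edgeR's TMM factors. These factors were 1.031 to 1.049 for normal and 0.9537 to 0.9659 for high glucose libraries. Several defining endothelial genes were scarce in both groups. Pecam1, which encodes the CD31 used for isolation, had between 9 and 19 counts per sample, Cdh5 between 91 and 242, Vwf between 73 and 144 and Tek between 151 and 302. Sox17 was at 0 in every sample. Other markers of the list, named here after their values were seen, were better represented, with 15854 to 22307 counts per sample for Eng, 4457 to 8030 for Flt1 and 1113 to 1464 for Egfl7. Fibroblast genes were abundant, with 230334 to 377269 counts of Pdgfra and 1007482 to 1944287 of Col1a1. The label is thus not borne out by Pecam1, Cdh5, Vwf, Tek and Sox17, and the samples are called only by their glucose level below. The summed level of the 16 fibroblast markers also moved with glucose, from 41816 to 45166 CPM under normal glucose up to 73356 to 78330 CPM under high glucose, and 10 of them rose while 5 fell. The collagen genes of the list weighed most in this sum. Mean Col3a1 went from 12421 to 32515 CPM and mean Col1a1 from 7771 to 13140 CPM, so the sum mainly follows collagen RNA. The summed level of the 17 endothelial markers was 220 to 248 CPM under normal and 200 to 206 CPM under high glucose. Eng and Flt1 made up most of this sum, with means of 155 and 55.3 CPM under normal and 140 and 38.4 CPM under high glucose. The part of these shifts in the results below was not tested. In bulk samples, fewer cells of a type and less RNA per cell cannot be told apart.

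Of the 10 elastic fibre genes, 7 rose in high glucose, 1 fell and 2 did not pass the threshold (edgeR quasi-likelihood test, adjusted P under 0.05). Fbn2, the fibrillin best known from development, rose 4.52-fold. Mfap4, Fbln1, Fbn1 and Efemp1 rose by between 42.4% and 84.9%, and Mfap5 and Efemp2 by 21.3% and 20.3%. Fbln5 fell by 16.2%, while elastin itself and Fbln2 were not called. Over all 19015 tested genes, 16.9% were called higher and 14.5% lower. Those shares include genes with far fewer counts, which are harder to call, whereas each of the 10 had at least 1627 counts in every sample. Since the 10 were also chosen with earlier results known, the counts set beside these shares are a description only. Samples of the 2 groups did not overlap for 8 of the 10 genes, 7 of them above and 1 below, beside 25.1% of all tested genes above and 21.3% below. The median log2 fold change was 0.39 over the 10 genes and 0.0062 over all tested genes. Fbn2 alone among the 10 was called with a log2 fold change of at least 1, as were 2.08% of all tested genes. Together the 10 genes held 0.759% ± 0.0457 of the normal glucose counts and 0.867% ± 0.0340 of those of high glucose (mean ± SD, n = 3 each). Leaving the totals unadjusted (library size scaling) moved the median over all genes from 0.0062 to -0.11 and the calls from 3212 higher and 2757 lower to 1819 higher and 4884 lower. Changes of the 10 genes under that scaling are given wherever they altered a call, turned a direction or moved by over 1.5 times.

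**Figure D1:**
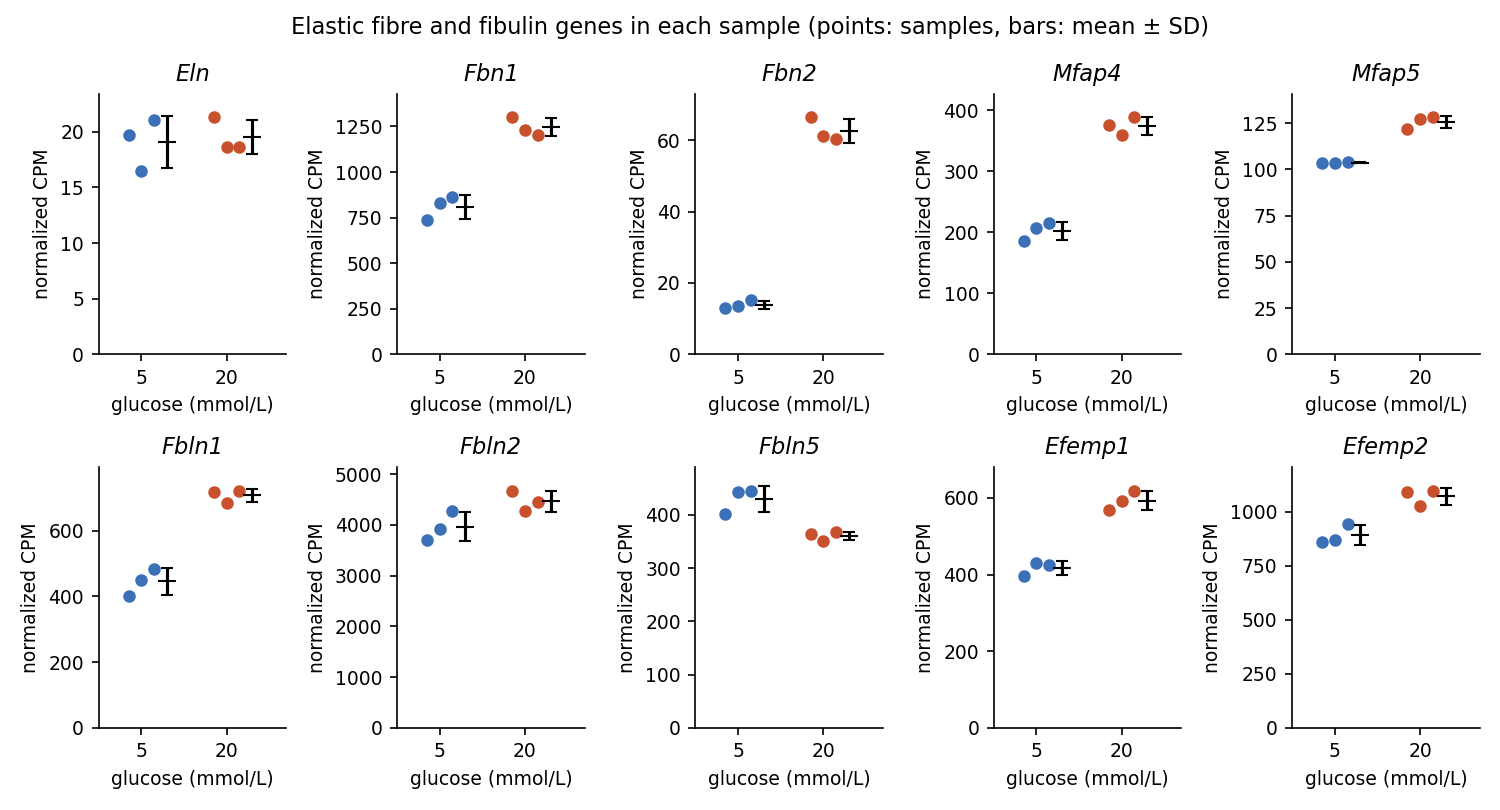
Normalized CPM (y axes, from 0) of the 10 genes in each sample at 5 and 20 mmol/L glucose, with points for the 3 samples of a group and bars for mean ± SD. The high glucose samples lie above all normal glucose samples in 7 panels and below them for Fbln5, and the groups overlap for Eln and Fbln2.

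Eln encodes tropoelastin, the monomer of the elastic core (ENSMUSG00000029675, GRCm38 chr5:134702593-134747323, minus strand). Its level was 19.8, 16.5 and 21.0 CPM in replicates 1, 2 and 3 in normal glucose and 21.3, 18.6 and 18.7 CPM in high glucose. The groups overlapped, with the lowest sample in normal glucose and the highest in high glucose. Means were 19.1 ± 2.32 and 19.5 ± 1.55 CPM (SD, n = 3), and the log2 fold change was 0.03 (SE 0.092, edgeR adjusted P = 0.821). The 95% interval ran from -0.17 to 0.24, so a change of up to that size in either direction is not excluded. Its sign was not stable, since it was -0.081 under library size scaling. It was also negative without normal glucose replicate 2 (-0.0726) and without high glucose replicate 1 (-0.0528). The estimate rested on between 2163 and 3024 counts per sample.

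The fibrillins form the microfibril scaffold. Fbn1, the main fibrillin of adult tissue (ENSMUSG00000027204, chr2:125300594-125507993, minus strand), stood at 737, 831 and 860.4 CPM in normal glucose and at 1301, 1230.2 and 1206 CPM in high glucose. Every high glucose sample was above every normal glucose sample. The mean went from 809 ± 64.5 to 1246 ± 49.3 CPM (SD, n = 3), a rise of 53.9% and a log2 fold change of 0.62 (SE 0.066, edgeR adjusted P = 5.7e-05). Of the genes called higher, 819 rose by more. After each library's trends on GC content and transcript length were removed, the log2 fold change of Fbn1 was 0.39 and still past the threshold. Exons of Gm9913 on the opposite strand share 2442 bases (20.1%) with those of Fbn1, and since no source says that reads were counted by strand, reads there cannot be assigned with certainty. Gm9913 itself had between 144 and 196 counts per sample, against at least 92266 for Fbn1.

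Fbn2 (ENSMUSG00000024598, chr18:58008623-58210487, minus strand) encodes a fibrillin made mostly in development. It was measured at 13.0, 13.4 and 15.2 CPM in normal glucose and at 66.5, 61.1 and 60.5 CPM in high glucose. The distance between the groups was far larger than the spread within either. Its mean rose from 13.9 ± 1.14 to 62.7 ± 3.30 CPM (SD, n = 3), with a log2 fold change of 2.18 (SE 0.072, edgeR adjusted P = 3.8e-08). Among all genes called higher, 37 rose by more. An antisense lincRNA gene, Gm26507, overlaps 129 bases (0.976%) of the Fbn2 exons and was not analysed here. Over 18 other settings the log2 fold change of Fbn2 lay between 1.96 and 2.24 and was called in each.

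**Figure D2:**
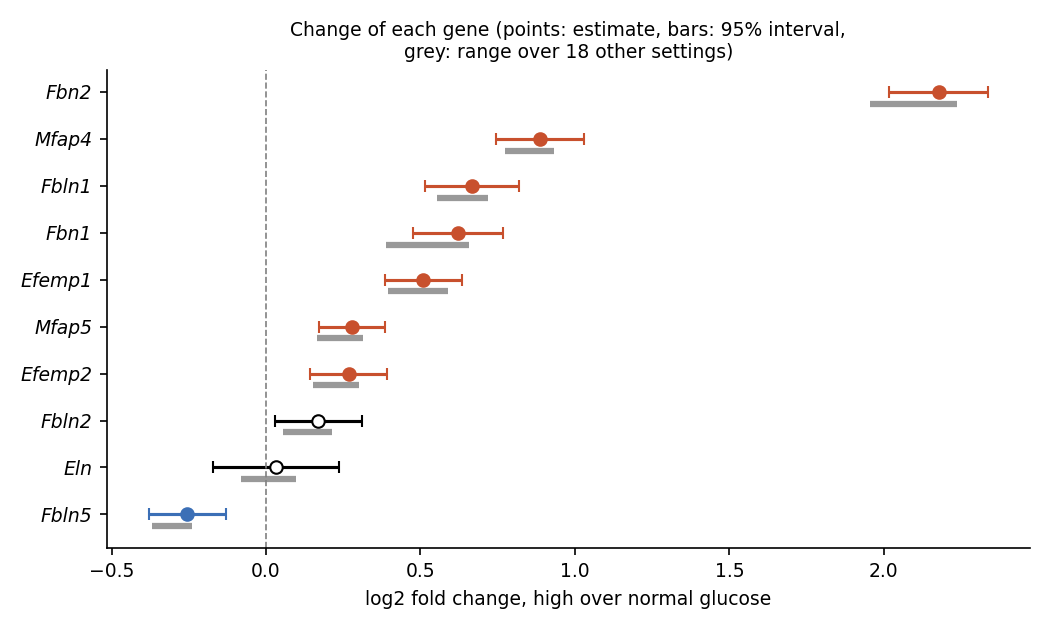
Log2 fold change of high over normal glucose (x axis) for each gene, with 95% intervals from the edgeR fit and grey bars for the range over 18 other settings. Fbn2 stands apart at 2.18, the interval and the grey bar of Eln cross 0, and Fbln5 alone lies below 0 over its whole interval.

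Mfap4 and Mfap5 encode proteins that attach to microfibrils. Mfap4 (ENSMUSG00000042436, chr11:61485431-61488900, plus strand), whose product binds both fibrillin and tropoelastin, gave 186, 206 and 215 CPM in normal glucose and 375, 359 and 388 CPM in high glucose. The groups were well separated. Group means went from 202 ± 15.1 to 374 ± 14.8 CPM (SD, n = 3), a 1.85-fold rise with a log2 fold change of 0.89 (SE 0.064, edgeR adjusted P = 4.1e-06). Mfap5 (ENSMUSG00000030116, chr6:122505845-122529290, plus strand) encodes MAGP-2, a small glycoprotein of the microfibril. It was at 104, 103 and 104 CPM in normal glucose and 122, 127 and 128 CPM in high glucose. Here the normal glucose samples were nearly alike, and all high glucose samples exceeded them. The mean went from 104 ± 0.405 to 126 ± 3.36 CPM (SD, n = 3), with a log2 fold change of 0.28 (SE 0.048, edgeR adjusted P = 0.00149). Under library size scaling the value for Mfap5 was 0.16, still past the threshold.

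Fibulins share repeats of calcium-binding EGF-like domains and a common C-terminal domain. Fbln1 and Fbln2 encode the long fibulins, found in basement membranes and elastic fibres, and Fbln5, Efemp1 and Efemp2 the short ones. Start sites of 6 of the 10 genes were taken from the RefSeq promoter table (GRCm38.p6), namely Fbn1, Fbln1, Fbln2, Fbln5, Efemp1 and Efemp2. Start sites of the other genes were not examined here, whether or not they are listed. Sequence before the start is printed for Fbln1 and Efemp1, which rose, and for Fbln5, which fell. These were picked after their values were seen, so that genes of one family moving apart can be read side by side. Bases lying in annotated exons were left out. Capitals mark the matches to 5 motifs searched on both strands, and no marked match overlaps another. The letters searched were GGGCGG for the GC box, CACGTG for the E-box and TGANTCA for AP-1. The CCAAT motif was searched by its own letters, and the TATA motif as TATAAA. The windows lie at chr15:85205699-85205948 (plus strand, 250 bases) for Fbln1, chr11:28852955-28853203 (plus strand, 249 bases) for Efemp1 and chr12:101819120-101819369 (minus strand, 250 bases) for Fbln5, each read 5′ to 3′ towards the gene.
Fbln1: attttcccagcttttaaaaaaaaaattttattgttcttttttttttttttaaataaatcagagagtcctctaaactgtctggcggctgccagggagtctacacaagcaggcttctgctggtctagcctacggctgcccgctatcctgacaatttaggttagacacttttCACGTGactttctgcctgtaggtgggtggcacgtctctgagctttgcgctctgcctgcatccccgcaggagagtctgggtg
Efemp1: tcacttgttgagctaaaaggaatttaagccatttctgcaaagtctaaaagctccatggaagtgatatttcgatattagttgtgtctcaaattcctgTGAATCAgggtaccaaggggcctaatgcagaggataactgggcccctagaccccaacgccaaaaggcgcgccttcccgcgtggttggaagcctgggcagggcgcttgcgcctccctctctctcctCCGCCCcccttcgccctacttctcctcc
Fbln5: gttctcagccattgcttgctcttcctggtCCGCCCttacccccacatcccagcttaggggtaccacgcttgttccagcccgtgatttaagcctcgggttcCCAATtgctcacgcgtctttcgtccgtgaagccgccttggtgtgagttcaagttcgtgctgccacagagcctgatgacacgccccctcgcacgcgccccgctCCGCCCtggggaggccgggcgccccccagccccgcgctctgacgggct
The Fbln1 window held a single match, an E-box that begins 81 bases before the start used here and 140 bases before another listed start. The Efemp1 window held an AP-1 match at 154 bases and, on the reverse strand, a GC box at 29 bases before the start. The Fbln5 window held a CCAAT match at 150 bases and reverse-strand GC boxes at 221 and 48 bases. Another listed start of Fbln5 kept no bases once exons were left out. GC content was 46.4%, 53.4% and 65.2% in that order. Efemp2 also rose, and its sequence is not printed. It had 2 GC box matches at 59.2% GC before a listed start and 4 at 78.8% GC before another. High GC content and GC boxes thus did not separate the gene that fell from those that rose. Of 32851 windows in the table, 32.7% held a GC box, 6.02% the E-box, 6.75% an AP-1 match, 33.8% the CCAAT motif and 12.4% TATA. The matches describe the letters only, and no binding was measured here.

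Fbln1 (ENSMUSG00000006369, chr15:85205949-85286535, plus strand), whose product binds fibronectin and basement membrane proteins, was measured at 402, 451 and 483 CPM in normal glucose and 717, 684 and 721 CPM in high glucose. The groups did not overlap. Its mean went from 445 ± 40.9 to 707 ± 20.2 CPM (SD, n = 3), with a log2 fold change of 0.67 (SE 0.069, edgeR adjusted P = 4.5e-05), and 737 genes called higher rose by more. Its splice forms cannot be separated in gene counts. Fbln2 (ENSMUSG00000064080, chr6:91212455-91272540, plus strand), the gene with the most counts of the 10, had 3708, 3925 and 4266 CPM in normal glucose and 4672, 4263 and 4451 CPM in high glucose. The highest normal glucose sample and the lowest high glucose sample overlapped narrowly. Group means went from 3966 ± 282 to 4462 ± 205 CPM (SD, n = 3), and the log2 fold change of 0.17 (SE 0.064, 95% interval 0.03 to 0.31) did not pass the threshold (edgeR adjusted P = 0.0677). Without normal glucose replicate 3 it was 0.22 and passed (edgeR adjusted P = 0.0397), the only one of the 18 other settings in which it did. The log2 fold change of Fbln2 was 0.11 without normal glucose replicate 1, 0.097 with the GC and length trends removed and 0.055 under library size scaling.

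The short fibulins take part directly in elastic fibre assembly. Fbln5 (ENSMUSG00000021186, chr12:101746565-101819055, minus strand), which tethers elastin to microfibrils and to integrins on cells, had 402, 443 and 445 CPM in normal glucose and 363, 351 and 367 CPM in high glucose. All high glucose samples lay below all normal glucose samples. The mean went from 430.0 ± 24.5 to 360.4 ± 8.15 CPM (SD, n = 3), with a log2 fold change of -0.25 (SE 0.056, edgeR adjusted P = 0.00629), and 2280 genes called lower fell by more. Fbln5 was called lower in all 18 other settings, with values from -0.37 to -0.24. Efemp1 (ENSMUSG00000020467, chr11:28853204-28926743, plus strand), which encodes fibulin-3, had 396, 429 and 425 CPM in normal glucose and 569.6, 591 and 619 CPM in high glucose. Its groups were separate. Group means went from 417 ± 18.2 to 593 ± 24.7 CPM (SD, n = 3), with a log2 fold change of 0.51 (SE 0.056, edgeR adjusted P = 7.1e-05). Efemp2 (ENSMUSG00000024909, chr19:5473954-5482517, plus strand) encodes fibulin-4, which brings lysyl oxidase to tropoelastin. It was at 858, 869 and 943 CPM in normal glucose and 1091, 1026 and 1097 CPM in high glucose. Again no sample of a group reached into the other. The mean went from 890.4 ± 46.1 to 1071 ± 39.4 CPM (SD, n = 3), with a log2 fold change of 0.27 (SE 0.057, edgeR adjusted P = 0.00512). The call for Efemp2 was lost under library size scaling, where the value was 0.15 (edgeR adjusted P = 0.0532). On the opposite strand, exons of Mus81 overlap 173 bases (4.57%) of the Efemp2 exons, those of Mapk7 89 bases (4.63%) of Mfap4 and those of Gm30003 267 bases (3.30%) of Eln. Mus81 and Mapk7 had between 1869 and 6022 counts per sample and were not called (log2 fold changes of -0.0096 and 0.096), and Gm30003 had at most 6 counts.

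Levels of different genes were compared as CPM per kb of the longest annotated transcript. In normal glucose the order ran from Fbln2 (829 CPM per kb), Efemp2 (338), Efemp1 (205) and Fbln1 (122) through Mfap4 (114), Fbln5 (73.8), Fbn1 (67.6) and Mfap5 (41.6) to Eln (4.96) and Fbn2 (1.26). Samples of neighbouring genes overlapped for Fbln1 and Mfap4 and for Fbln5 and Fbn1, so those neighbours were not separated by their spread. Eln was below every other gene of the group except Fbn2. In high glucose the order was Fbln2 (932 CPM per kb), Efemp2 (407), Efemp1 (291), Mfap4 (211), Fbln1 (193), Fbn1 (104), Fbln5 (61.8), Mfap5 (50.5), Fbn2 (5.68) and Eln (5.07). There the samples of Fbn2 and Eln overlapped. Mfap4 thus ranked above Fbln1 and Fbn1 above Fbln5 by their means, and Fbn2 was at the level of Eln. Counted over the union of all exons, Mfap4 was already above Fbln1 and Fbn1 above Fbln5 in normal glucose, with overlapping samples, and in high glucose Efemp1 overlapped Efemp2 and Fbn2 lay above Eln without overlap. Of the summed per-kb level of the 10 genes, Fbln2 took 46.1% ± 0.520 under normal and 41.2% ± 0.925 under high glucose (SD, n = 3), and Mfap4 went from 6.36% ± 0.141 to 9.34% ± 0.205.

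**Figure D3:**
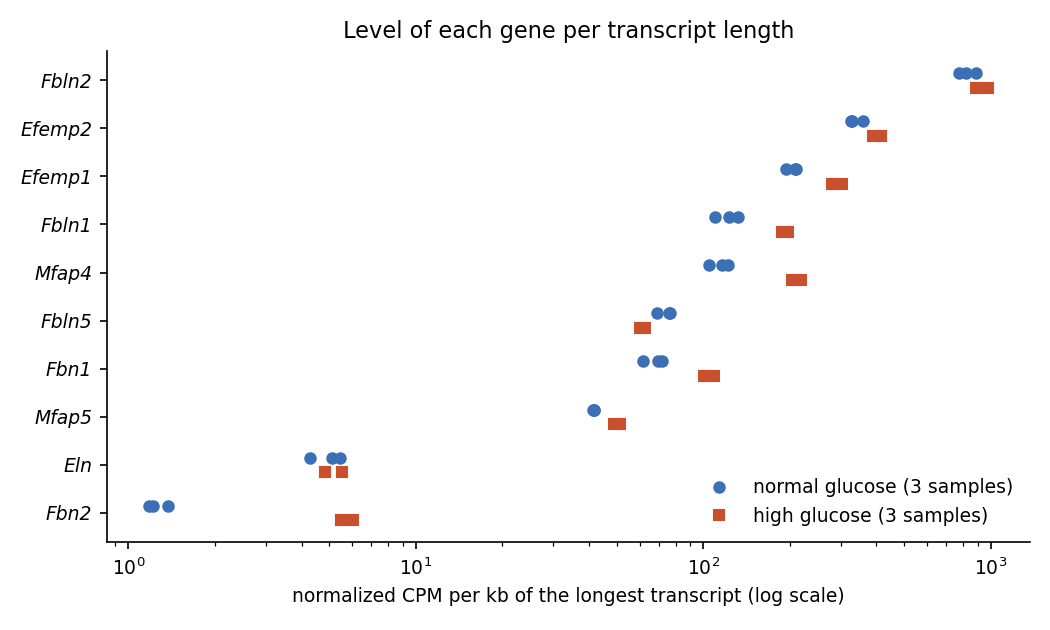
Normalized CPM per kb of the longest transcript (x axis, log scale) for each of the 10 genes, with circles for the 3 normal glucose samples and squares for the 3 high glucose samples. Fbln2 is highest in both groups, and the squares of Fbn2 lie at the level of Eln, whereas its circles lie below.

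Because a ratio of genes within a sample does not depend on how libraries are scaled, 6 ratios were compared between the groups. Each was taken from counts divided by the length of the longest annotated transcript. With 3 samples against 3, the exact two-sided permutation test cannot go below P = 0.1, and each ratio reached that smallest value (0.1 also after Benjamini-Hochberg adjustment over the 6), with no overlap between the groups. The per-length ratio of Eln, the core, to Fbn1, the scaffold, was 0.0731 in normal glucose and 0.0486 in high glucose (geometric means). Its log2 difference was -0.59. GC and length trends can still enter such a ratio. With them removed, the log2 fold changes were -0.0230 for Eln and 0.39 for Fbn1, beside 0.03 and 0.62 in the main fit. On the log2 scale this ratio ran from -4.02 to -3.59 in normal glucose samples and from -4.41 to -4.30 in high glucose samples, without overlap. The ratio of Fbn2 to Fbn1 was 2.94-fold higher in high glucose, a log2 difference of 1.56, and the share of Fbn2 in fibrillin RNA per kb went from 1.82% ± 0.0893 to 5.17% ± 0.0719 (SD, n = 3). In the long fibulins, the ratio of Fbln2 to Fbln1 was 6.82 in normal glucose and 4.82 in high glucose, a log2 difference of -0.50. In the short fibulins, the share of Fbln5 in their summed RNA per kb was 12.0% ± 0.323 under normal and 8.14% ± 0.103 under high glucose (SD, n = 3), with no overlap. Efemp1 went from 33.2% ± 0.887 to 38.3% ± 1.19 of that sum, while Efemp2 held 54.8% ± 1.17 and 53.5% ± 1.12, with overlapping samples. The per-length ratio of Efemp1 to Efemp2 was 0.605 in normal glucose and 0.716 in high glucose, a log2 difference of 0.24. The ratio of Fbln5 to Eln went from 14.9 to 12.2, a log2 difference of -0.29, and that of Mfap5 to Mfap4 from 0.365 to 0.239, a log2 difference of -0.61. In all 36 values obtained by leaving out a sample, each ratio kept its direction. The ratios show unequal change within pairs and do not say which gene of a pair moved.

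**Figure D4:**
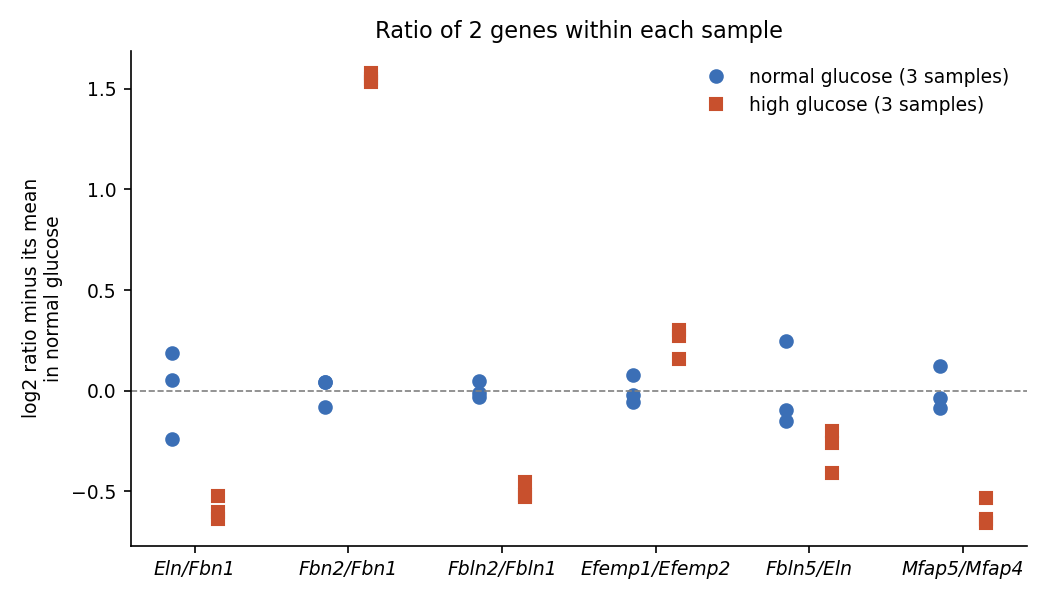
Log2 ratio of the counts of a pair of genes in each sample, minus its mean over the normal glucose samples (y axis), for 6 pairs (x axis), with circles for normal glucose and squares for high glucose (3 samples each). In every pair the squares lie outside the range of the circles, most of all for Fbn2 over Fbn1.

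The genes whose level across the 6 samples was most like that of Eln and Fbn1 were also listed, searching the 9485 genes that averaged at least 10 CPM. For Eln, they were Impdh1 (Pearson r = 0.983), Mrps28 (0.981) and Jagn1 (0.96), with log2 fold changes of 0.015, 0.019 and 0.015. For Fbn1, they were the collagen VI gene Col6a3, the dynein heavy chain gene Dync1h1 and the Wnt receptor gene Fzd8 (r = 0.999 each), with log2 fold changes of 0.51, 0.63 and 0.58. These r values are a description over 6 samples in 2 groups that share libraries and scaling.

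Other genes of the pathway were taken from lists by function, and their counts stand beside 16.9% of all tested genes called higher and 14.5% called lower. Of 25 microfibril partners, 23 were tested, 12 rose and 4 fell, with a median log2 fold change of 0.19. Fbln7, a further fibulin of low level, rose from 1.56 ± 0.251 to 4.75 ± 0.325 CPM (SD, n = 3), with a log2 fold change of 1.60 (edgeR adjusted P = 7.2e-06). The ADAMTS-like genes Adamtsl2 and Adamtsl4, whose products bind fibrillin microfibrils, rose with log2 fold changes of 1.43 and 0.98 (edgeR adjusted P = 1.2e-06 and 4.6e-07). Mfap2, which encodes MAGP-1, rose by 0.53 on the log2 scale, Emilin1, which lies between elastin and microfibrils, by 0.49, and the latent TGF-β binding gene Ltbp3 by 0.48 (edgeR adjusted P = 6.9e-05, 1.4e-04 and 2.2e-04). Its relatives Ltbp2 (0.27) and Ltbp1 (0.19) rose as well, but were called in 15 and 9 of the 18 other settings, and were 0.16 and 0.072 under library size scaling and 0.12 and 0.061 with GC and length trends removed. Ltbp2 lost its call without high glucose replicate 1 (0.22), and Ltbp1 without any of normal glucose replicates 2 (0.16) and 3 (0.17) and high glucose replicates 1 and 3 (0.15 each). Ltbp4, which guides elastin assembly together with fibulins, had a log2 fold change of 0.094 and was not called (edgeR adjusted P = 0.266). Hmcn1, a giant relative of the fibulins, was called at 0.28 (edgeR adjusted P = 0.0252). The value for Hmcn1 was 0.011 with the GC and length trends removed, it was 0.18 without normal glucose replicate 1, and the call was lost without normal glucose replicate 3 (0.31), high glucose replicate 1 (0.27) or high glucose replicate 2 (0.21). It was also lost under library size scaling (0.17) and with no filter on low counts (0.26), so that the call for Hmcn1 held in 11 of the 18 other settings.

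Of 12 genes of elastin folding and cross-linking, 6 rose and 1 fell, with a median of 0.22. Lox, the main lysyl oxidase, rose from 2961 ± 212 to 3875 ± 112 CPM (SD, n = 3), with a log2 fold change of 0.39 (edgeR adjusted P = 8.5e-04). Bmp1, whose protease activates lysyl oxidase, rose by 0.37 on the log2 scale (edgeR adjusted P = 4.6e-04). Loxl1, the lysyl oxidase most tied to elastin, rose by 0.26 (edgeR adjusted P = 0.00618) and lost its call under library size scaling (0.15). The copper pump gene Atp7a was called at 0.39 (edgeR adjusted P = 0.0244), but in 12 of the 18 other settings. Without normal glucose replicate 3 (0.40) or any of the high glucose replicates (0.38, 0.35 and 0.38 for replicates 1, 2 and 3), Atp7a lost its call, and without normal glucose replicate 1 it was 0.23.

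Among 11 tested elastin-degrading enzymes, 3 rose and 3 fell, with a median of -0.019. Mme, the gene of neprilysin, rose from 75.4 ± 9.86 to 195 ± 10.4 CPM (SD, n = 3), with a log2 fold change of 1.37 (edgeR adjusted P = 1.7e-06). Mmp9, a gelatinase of low level here, and Ctsk, the cathepsin K gene, fell with log2 fold changes of -1.16 and -0.50 (edgeR adjusted P = 6.4e-05 and 3.8e-05). Of 7 tested inhibitors of these enzymes, 3 rose and 2 fell, with a median of 0.17. Timp3 fell from 137 ± 5.35 to 88.9 ± 1.48 CPM (SD, n = 3), with a log2 fold change of -0.63 (edgeR adjusted P = 9.1e-06), whereas Timp1 rose by 0.30 on the log2 scale (edgeR adjusted P = 0.00578), or by 0.19 under library size scaling. A2m was called at 0.47 from a level near 1.09 CPM, and in 11 of the 18 other settings. Without normal glucose replicate 1 (0.34), high glucose replicate 1 (0.42) or high glucose replicate 3 (0.42), A2m lost its call. Integrins that bind the RGD motif, the receptors through which cells hold fibrillin and Fbln5, showed 0 rises and 3 falls among 7 tested genes, with a median of -0.18. At an unadjusted P under 0.05, edgeR gave 2 integrins higher and 5 lower, and DESeq2 called 0 higher. Itgb3 fell by 0.56 on the log2 scale, Itga8 by 0.46 and Itgb1 by 0.25 (edgeR adjusted P = 5.9e-05, 0.00260 and 0.00673).

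**Figure D5:**
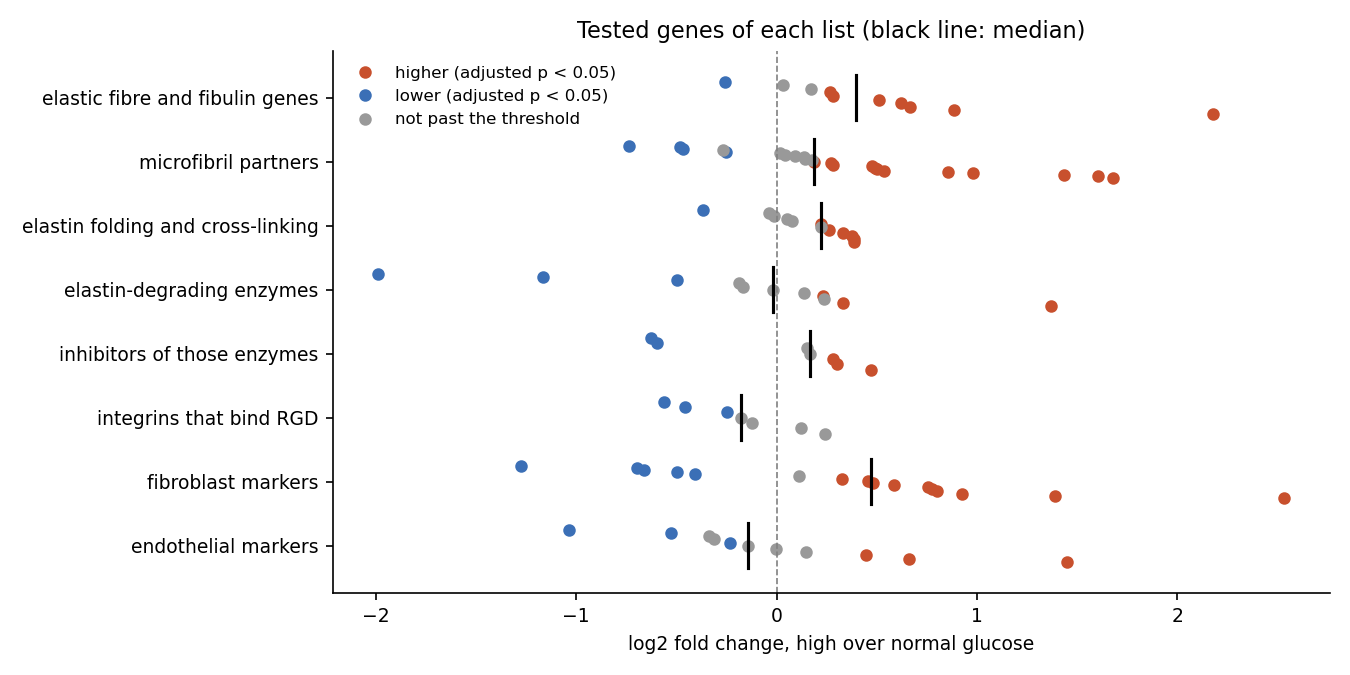
Log2 fold change of high over normal glucose (x axis) for each tested gene of 8 lists (rows), colored by whether it was called higher, lower or not past the threshold, with a black line at the list median. The elastic fibre and fibulin genes and the fibroblast markers have medians of 0.39 and 0.47, and the RGD-binding integrins a median of -0.18.

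Markers of the cell types that a skin isolate could hold were examined in the same fit. Among 11 tested endothelial markers, 3 rose and 3 fell, with Cdh5 (-1.03), Tek (0.66) and Flt1 (-0.53) called. Among the fibroblast markers the median was 0.47, and Pi16 (2.53), Col3a1 (1.39) and S100a4 (-1.27) were the called genes with the largest changes. The elastic fibre genes and these markers moved in the same samples, and the part of the markers' shift in the values of Fbn2 and the other genes was not tested. Of 11 tested smooth muscle and pericyte markers, 1 rose (Rgs5, 1.20) and 6 fell, among them Cnn1 (-1.02) and Cspg4 (-0.91), and Acta2 had between 36236 and 52099 counts, against 59 to 99 for Myh11. Of 6 adipocyte markers 4 rose, among them Adipoq (0.67), Lpl (0.62) and Plin1 (0.37), and all 6 had log2 fold changes above 0. Of 5 tested macrophage markers 1 rose (Cd14, 1.16) and 3 fell, among them Csf1r (-0.73) and Cd68 (-0.46), and Ptprc and Adgre1 had at most 16 and 3 counts. Cd68 was called in 9 of the 18 other settings and lost its call without normal glucose replicates 2 (-0.46) or 3 (-0.37) or high glucose replicates 2 (-0.42) or 3 (-0.41). Of 5 Schwann cell markers 1 rose (Ngfr, 0.42) and 3 fell, among them S100b (-0.90). Of 4 tested keratinocyte markers 1 rose, namely Krt5, with 2 counts in each normal glucose sample and 12 to 23 in high glucose, and Krt14 had at most 35 counts.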

How the data were processed

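The deposited file holds 1 table of whole-number counts per gene for the 6 samples. Per the labels, the submitters' processing notes and the study's methods, the authors trimmed reads with Trimmomatic, aligned them to GRCm38 (mm10) with HISAT2 and obtained counts with StringTie, without normalization. Versions and strand setting are not given in the sources used here. Counts converted from coverage may count both reads of a pair, so halved counts were tried. The 95% intervals of fold changes come from the edgeR fit and include the spread between samples. The labels name TRIzol and DNBSeq, whereas the methods name other kits and a different sequencer.

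Of 55487 identifiers, 55141 had a symbol in GENCODE M21, and the other 346 held 0.034% of the counts. In R 4.3.3, edgeR 4.0.16 was applied to the deposited counts with filterByExpr (minimum count 10, minimum total 15), TMM scaling and the quasi-likelihood test across all 19015 tested genes, and P values adjusted by Benjamini-Hochberg were called under 0.05. Alternatives were DESeq2 1.42.0, the likelihood ratio test, robust fitting, other scalings and filters, each sample left out, a block for the replicate number, and removal of GC and length trends with mgcv 1.9.3. The fit was also run on simulated counts with 200 changed genes. Those counts were drawn from the means and dispersions of this same fit, so the run cannot show whether the model suits these data. Single ratios were compared with exact permutation tests. A floor of 3 counts, which covers counting error only, equals between 0.0212 and 0.0258 CPM. Counts of samples within a group varied beyond sampling noise (chi-square per degree of freedom of at least 9.03). Samples were grouped by their titles.

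The 10 genes and all lists were chosen with earlier results of these data known. Named genes are the 10 genes, up to 3 called genes per list with the largest absolute change and a mean of at least 1 CPM, Mfap2, Lox, Loxl1, Ltbp1, Ltbp2, Ltbp3, Ltbp4, Emilin1, Fbln7 and Hmcn1 whatever their values, defining markers of each cell type, genes most like Eln and Fbn1, and genes overlapping one of the 10. A gene that this rule names is not reported here. Upstream sequences come from RefSeq on GRCm38.p6. The qPCR, protein and animal experiments were not analysed here.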

Additional observations from a re-analysis of the deposited data

How the results depend on the processing

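The count of elastic fibre genes called higher stayed between 6 and 8 over 18 other settings and at an adjusted P under 0.01, and 1 was called lower in each. Requiring a log2 fold change of at least 1 left 1 called higher and 0 lower. The median log2 fold change of 0.39 was 0.28 under library size scaling. Eln, not called in any setting, turned to -0.00987 under upper quartile scaling, -0.081 under library size scaling, and -0.0230 and -0.0201 with GC and length trends removed without and with the replicate block, and ranged from -0.0726 to 0.098 with a sample left out. Ltbp4, also not called, gave -0.0205, -0.042 and -0.042 in the last 3 of those full-sample settings. Over all genes, the 3212 called higher became 1819 under library size scaling and 2010 and 1988 without high glucose replicates 1 and 3, and the 2757 called lower became 4884 under library size scaling.

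In the other lists, library size scaling gave 3 folding and cross-linking genes higher and 2 lower, 1 inhibitor higher and 5 RGD-binding integrins lower. With a sample left out, 1 to 2 inhibitors were lower (1 without high glucose replicate 1), 0 to 1 integrins higher (1 without normal glucose replicate 2) and 3 to 5 lower (5 without normal glucose replicate 1). Likewise 1 to 2 smooth muscle and pericyte markers were higher (2 without high glucose replicate 2) and 1 to 3 keratinocyte markers (2, 3 and 2 without normal glucose replicates 1, 2 and 3, and 2 without high glucose replicate 2). DESeq2 and the replicate block each gave 2 smooth muscle and pericyte markers higher. The cause of these shifts was not tested.

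The labels number replicates 1 to 3 in both groups. The deviations from group means of samples with the same number had correlations across genes of -0.025, 0.0038 and 0.013. No component shared by same-numbered samples was thus seen, which does not show whether they came from the same isolation. With the replicate block, 7 elastic fibre genes were called higher and 1 lower, and 2909 and 2418 of all genes. With 3 samples a group, no single ratio could reach an exact P under 0.1. Low-count markers such as Pecam1 rest on few counts, so their fold changes are imprecise.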
